A study of Mus musculus with 12 samples.

Results

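Interferon-stimulated genes are the genes that a cell switches on when it senses interferon. A list of 42 of them was followed by gene name through the read counts of mouse liver, out of 55291 genes in the count table, and all 42 were among the 18305 genes with enough reads to be tested. The study compared a high-fat diet with a normal one, and exercise on the high-fat diet with no exercise, and 12 libraries in 4 groups of 3 were used. The mice were male and of the inbred C57BL/6 strain, and they entered the study at 6 weeks of age. The groups were HFD+AE (libraries 1, 2 and 3), HFD+RE (libraries 3, 4 and 5), HFD (libraries 1, 2 and 3) and NC (libraries 2, 4 and 5). HFD+AE and HFD+RE mice ate the high-fat diet D12492 for 8 weeks and then exercised for at least 12 weeks while staying on it. HFD mice ate that diet without exercise, and NC mice ate a normal control diet. AE and RE are not spelled out in the labels and usually mean aerobic and resistance exercise. The labels name no transgene or deletion in any group. The sources used here do not state whether each library is a different mouse, so p-values measure only how much these samples vary, which may be technical.

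Interferons are secreted proteins that alert cells to viruses and other threats. Type I interferons (the alpha and beta forms) bind the receptor pair IFNAR1 and IFNAR2, and the kinases JAK1 and TYK2 then switch on a complex with STAT2 and IRF9 that binds a DNA element called the ISRE. Interferon gamma, made mostly by T and NK cells, binds IFNGR1 and IFNGR2 and acts mainly through a different element, the GAS. Many genes answer to both. The 42 genes were split by the better known inducer into 34 type I-like genes and 8 gamma-like genes, with the gamma-like group made up of Irf1, Ifi47, Gbp2, Gbp3, Gbp7, Iigp1, Igtp and Irgm1. In liver, hepatocytes, Kupffer cells and endothelial cells can all answer to interferon. In whole liver, fewer cells of a type and less RNA per cell cannot be told apart.

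The DNA around the start site was read for sequence that these genes share. RefSeq promoter sequences (build GRCm38.p6, 250 bases before to 50 bases after the start site) were matched by symbol for 31 of the 42 genes. The core of the ISRE was searched on both strands as GAAA, 2 bases of any kind and GAAA again, which on the other strand reads TTTC, 2 bases of any kind and TTTC. At least 1 match was found for 19 of the 31 genes (61.3%), against 1079 of all 27025 genes in the promoter table (3.99%). Per promoter, the background share was 3.44% of 32851 sequences. Type I-like genes had a match in 14 of 24 cases and gamma-like genes in 5 of 7. The GAS element, searched as TTCNNNGAA, reads the same on both strands and was found for 9 of 31 genes (29.0%), made up of 6 of 24 type I-like and 3 of 7 gamma-like genes, against 9.55% of all genes in the table. A match is a description of letters in this window and not evidence of binding. The 170 bases that end just before the start site are shown for 8 genes, all of them with an ISRE core match. Of these genes, 5 rose on the high-fat diet (Ifit3, Ifit1, Isg15, Rsad2 and Gbp7) and 3 did not pass the test (Bst2, Gbp2 and Irgm1). Each stretch is written 5′ to 3′ in the direction of the gene, and capitals mark the ISRE core matches, with overlapping matches run together. They lie at chr19:34583359-34583528 (plus strand), chr19:34640719-34640888 (plus strand), chr4:156200819-156200988 (minus strand), chr12:26456453-26456622 (minus strand), chr3:142530166-142530335 (plus strand), chr8:71537473-71537642 (minus strand), chr3:142620493-142620662 (plus strand) and chr11:48871421-48871590 (minus strand), in the order of the lines.
Ifit3: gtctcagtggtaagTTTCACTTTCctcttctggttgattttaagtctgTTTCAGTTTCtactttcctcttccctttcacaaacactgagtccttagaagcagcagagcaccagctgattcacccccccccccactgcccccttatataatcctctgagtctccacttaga
Ifit1: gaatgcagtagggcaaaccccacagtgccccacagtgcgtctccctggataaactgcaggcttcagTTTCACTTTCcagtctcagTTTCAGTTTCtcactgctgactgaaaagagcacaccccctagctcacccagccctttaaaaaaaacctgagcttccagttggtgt
Isg15: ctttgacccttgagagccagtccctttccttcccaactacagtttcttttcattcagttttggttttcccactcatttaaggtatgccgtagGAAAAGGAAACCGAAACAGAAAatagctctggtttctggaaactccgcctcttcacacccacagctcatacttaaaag
Rsad2: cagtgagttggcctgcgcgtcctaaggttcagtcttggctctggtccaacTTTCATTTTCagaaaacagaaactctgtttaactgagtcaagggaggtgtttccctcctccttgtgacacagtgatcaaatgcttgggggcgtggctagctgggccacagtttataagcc
Gbp7: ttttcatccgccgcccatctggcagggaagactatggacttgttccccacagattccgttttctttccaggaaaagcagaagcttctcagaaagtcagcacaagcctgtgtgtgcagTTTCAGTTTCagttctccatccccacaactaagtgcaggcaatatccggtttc
Bst2: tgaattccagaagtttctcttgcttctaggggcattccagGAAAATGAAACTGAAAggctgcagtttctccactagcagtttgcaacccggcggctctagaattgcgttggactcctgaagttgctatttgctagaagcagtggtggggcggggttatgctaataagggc
Gbp2: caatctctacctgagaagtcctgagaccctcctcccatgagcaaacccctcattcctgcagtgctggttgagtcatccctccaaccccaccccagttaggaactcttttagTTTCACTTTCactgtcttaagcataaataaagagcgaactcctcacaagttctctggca
Irgm1: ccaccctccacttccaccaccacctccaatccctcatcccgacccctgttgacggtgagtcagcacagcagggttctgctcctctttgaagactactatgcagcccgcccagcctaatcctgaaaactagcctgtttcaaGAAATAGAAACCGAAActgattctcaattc

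Each of the 8 sequences holds the core, including those of the 3 genes that did not pass the test. Only promoters with a match are shown, so this is no result. Isg20, Ifi35, Ifi44 and Xaf1 also rose on the high-fat diet and had no match. Ifit3 and Ifit1 each carry it at separate places, while Isg15, Bst2 and Irgm1 carry overlapping copies. Among genes with a promoter in the table, 6 of the 10 that rose on the high-fat diet had an ISRE core, and so did 13 of the 21 that did not pass. A GAS match was present in 3 of the 10 and in 6 of the 21.

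Total counts per library ranged from 44373214 to 77665729. Levels are CPM, the library's counts scaled to a common total after TMM scaling, and error is the SD over 3 libraries. Every one of the 42 genes was detected in all 12 libraries, with a lowest count of 17 for Oas3 and a highest of 28193 for Iigp1. Mean CPM over the libraries ran from 1.10 for Oas1g to 310.5 for Iigp1. Per kilobase of exon, the highest level was that of Bst2 (139 CPM per kb), a membrane protein that tethers budding virus particles, followed by Ifi27 (57.2) and Iigp1 (53.3), and the lowest was that of Oas3 (0.156). Of 42 genes, 29 had their highest group mean in HFD, 7 in HFD+AE, 1 in HFD+RE and 5 in NC.

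**Figure D1:**
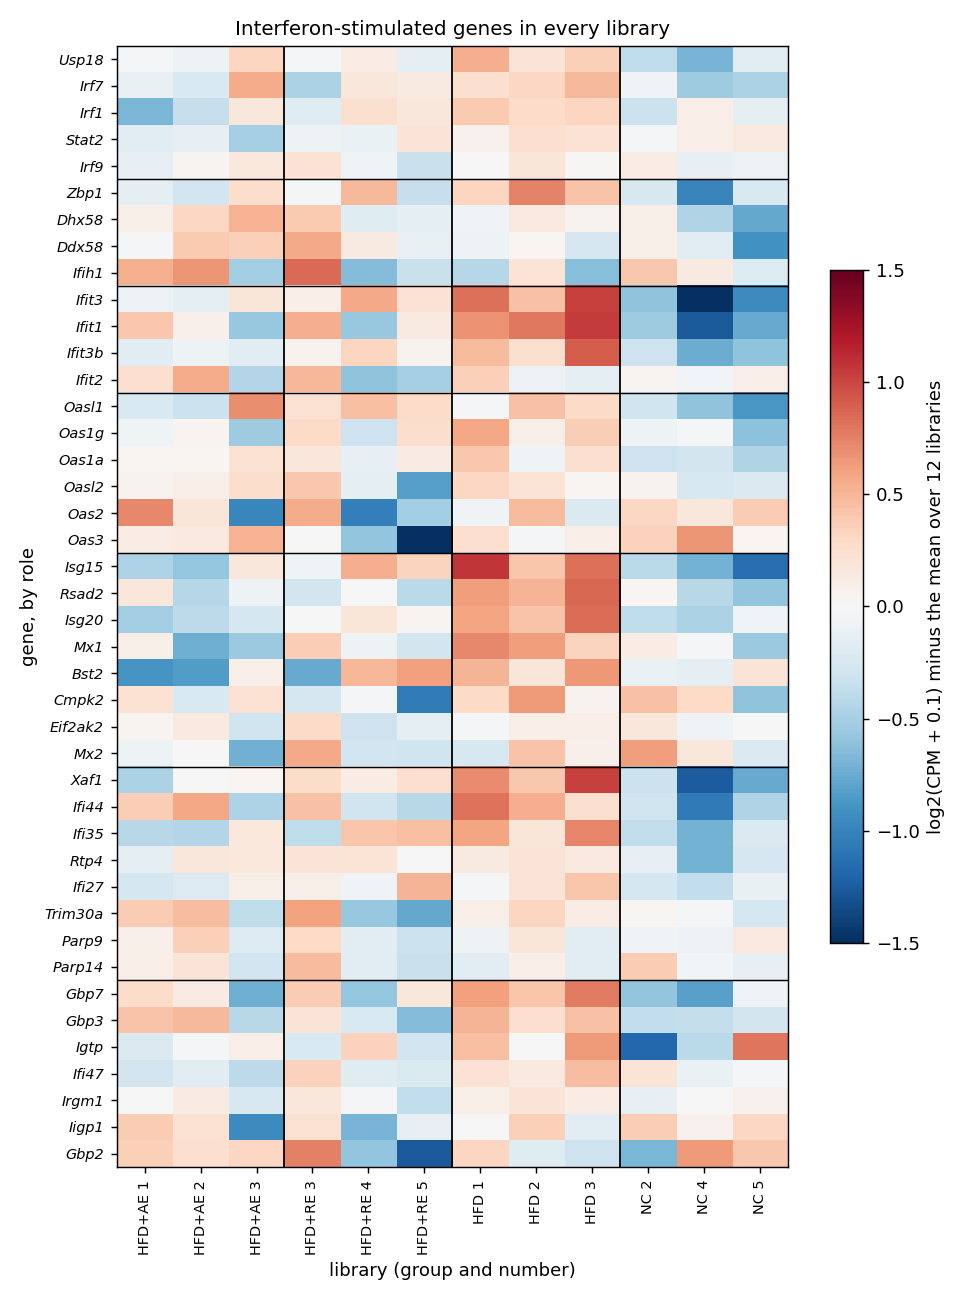
Heat map of the 42 genes (rows, grouped by role) in the 12 libraries (columns, by group), where colour is log2(CPM + 0.1) minus the gene's mean over the 12 libraries. The HFD columns are red for Ifit3, Ifit1, Isg15 and Xaf1 and the NC columns blue, while rows such as Ifih1 and Oas2 follow single libraries rather than groups.

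On the high-fat diet alone, 12 of the 42 genes rose relative to the normal diet, 0 fell and 30 did not pass the test. Those that rose were Ifit3, Ifit1, Ifit3b, Isg15, Rsad2, Isg20, Xaf1, Ifi44, Ifi35, Usp18, Zbp1 and Gbp7, with log2 changes of 0.78 to 1.79, a median of 1.10. Calls are from edgeR's quasi-likelihood F-test, with p-values adjusted by Benjamini-Hochberg over all 18305 genes and a threshold of 0.05. At that threshold 8.38% of all tested genes were higher and 7.19% lower in HFD than in NC. The share of the list that rose (28.6%) was above that background and the share that fell (0 of 42) below it. The same 2 background shares apply to each count of genes that rose or fell in HFD vs NC below. In 23 of 42 genes (54.8%) every HFD library was above every NC library, which held for 23.9% of all tested genes. The median log2 change was 0.45 over the 42 genes and 0.01 over all tested genes, and 34 of the 42 were positive. DESeq2 called 17 of the 42, against 23.8% of all tested genes in either direction.

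**Figure D2:**
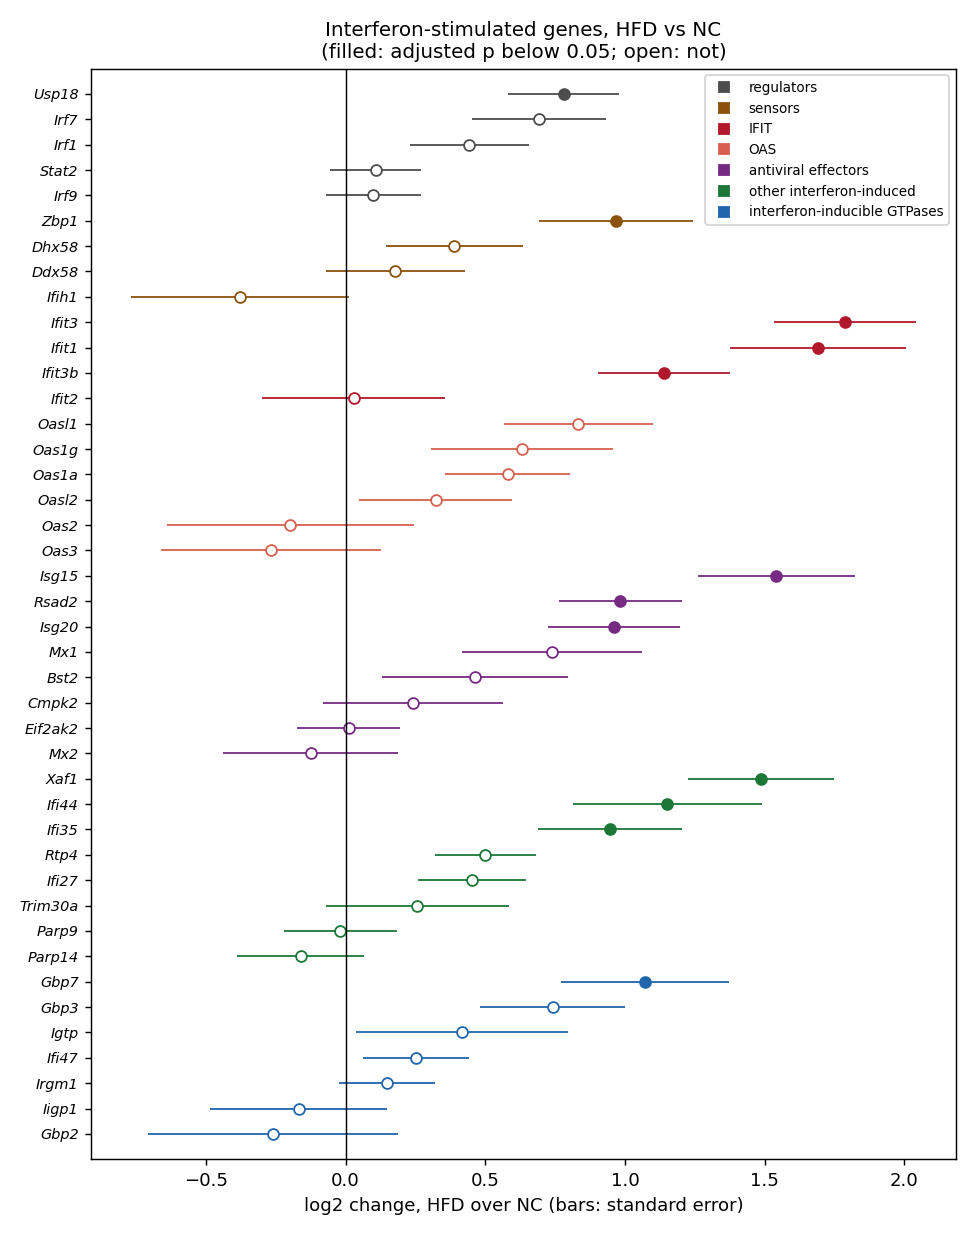
Log2 change of each of the 42 genes, HFD over NC, with standard error as bars, colour for role and filled points for an adjusted p below 0.05. The 12 filled points lie between 0.78 and 1.79, and the open points reach from -0.38 (Ifih1) to 0.83 (Oasl1).

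The IFIT genes, whose proteins bind viral RNA and block its translation, rose in 3 of 4 cases, and Ifit3 and Ifit1 had the largest log2 changes of the list. They cluster on chromosome 19, between base 34550694 (the start of Ifit2) and base 34650009 (the end of Ifit1) in the coordinates of the count table, whose build the submitters' processing notes give as mm10. Ifit3 had 10.5, 10.1 and 12.6 CPM in HFD+AE, 12.0, 16.6 and 13.0 CPM in HFD+RE, 19.9, 15.1 and 22.8 CPM in HFD, and 7.32, 3.68 and 5.72 CPM in NC. Every HFD library was above every library of NC, and the HFD+AE and HFD+RE libraries lay between the diets with the exception of 1 HFD+RE library that passed the lowest HFD value. The log2 change of HFD over NC was 1.79 (SE 0.25, adjusted p = 0.0026), a 3.45-fold higher level, with means of 19.3 ± 3.87 CPM in HFD and 5.57 ± 1.83 CPM in NC (SD, n = 3 each). Ifit1 had 10.2, 8.13 and 5.19 CPM in HFD+AE, 11.3, 5.18 and 8.49 CPM in HFD+RE, 12.4, 13.4 and 16.1 CPM in HFD, and 5.32, 3.15 and 4.52 CPM in NC. HFD was again highest without overlap, at 1.69 (SE 0.31, adjusted p = 0.0082), and 1 HFD+AE library (5.19 CPM) and 1 HFD+RE library (5.18 CPM) lay within the NC range. Ifit3b had 2.99, 3.17 and 2.95 CPM in HFD+AE, 3.48, 4.20 and 3.46 CPM in HFD+RE, 4.67, 3.96 and 6.34 CPM in HFD, and 2.68, 1.96 and 2.17 CPM in NC. Its change was 1.14 (SE 0.24, adjusted p = 0.012). Ifit3 and Ifit3b share sequence: 51.2% of the 50-base stretches of Ifit3 transcripts also occur in Ifit3b, so their separate values are uncertain. Ifit2, the remaining family member, did not pass, with a log2 change of 0.03 (SE 0.33, adjusted p = 0.96).

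**Figure D3:**
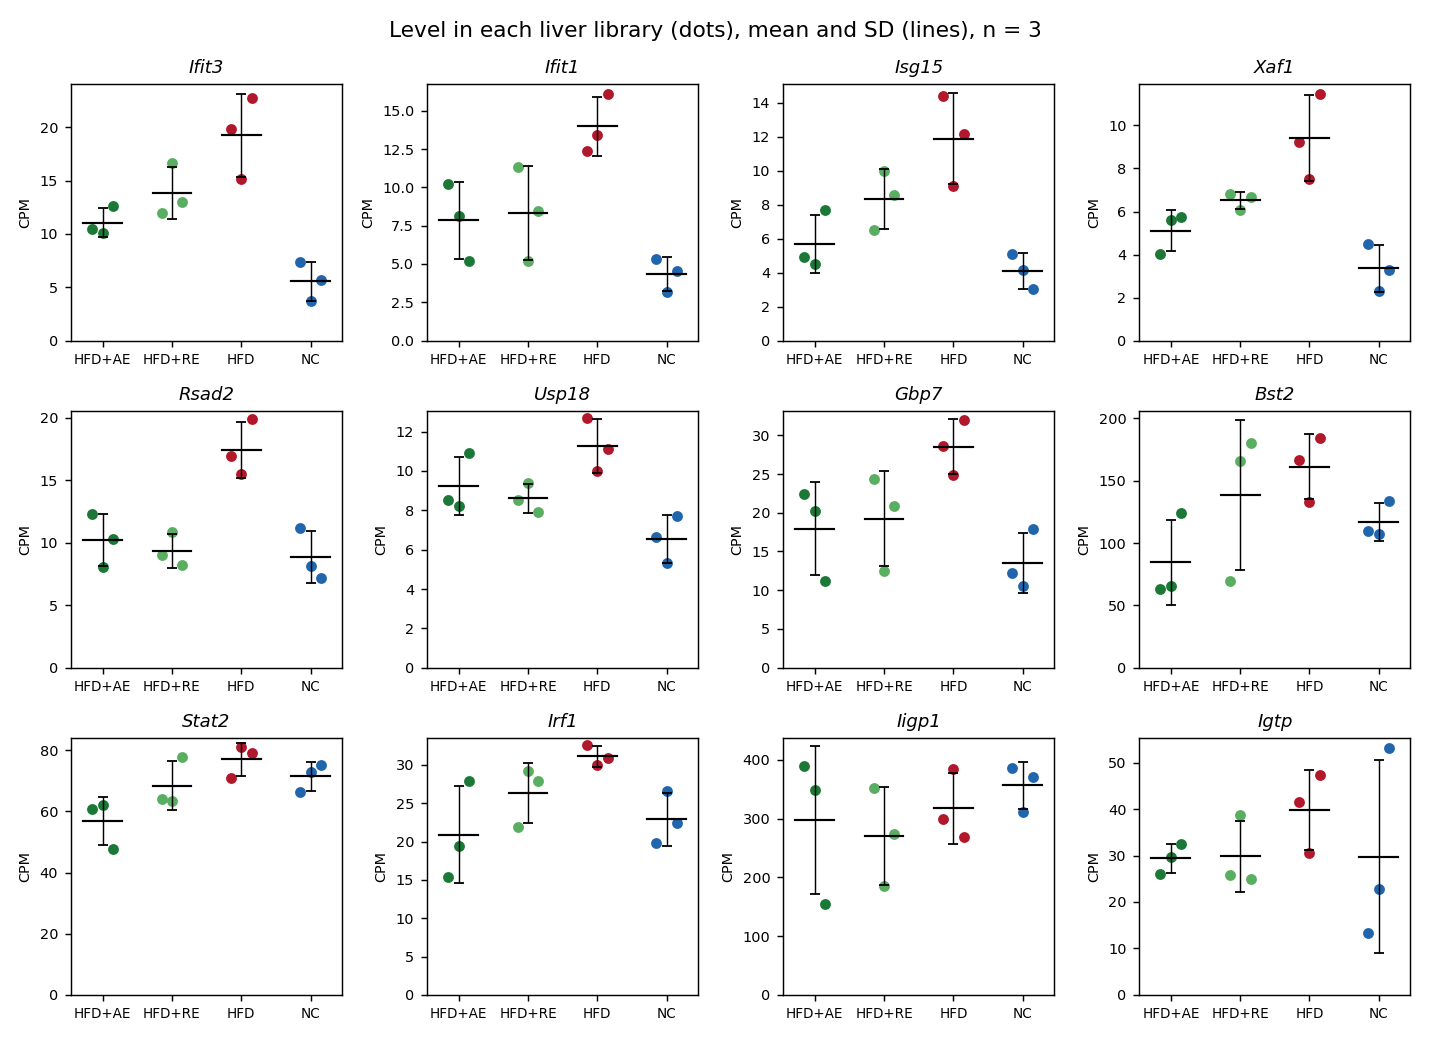
CPM of 12 of the genes in each library (dots), with mean and SD (lines, n = 3), for HFD+AE, HFD+RE, HFD and NC from left to right and axes from 0. HFD lies above NC without overlap for Ifit3, Ifit1, Isg15, Xaf1, Rsad2, Usp18, Gbp7 and Irf1, while the HFD and NC dots of Bst2, Stat2, Iigp1 and Igtp overlap.

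Among the antiviral effectors, 3 of 8 rose and none fell. Isg15 encodes a ubiquitin-like protein that is attached to other proteins. Isg15 had 4.91, 4.54 and 7.66 CPM in HFD+AE, 6.49, 10.01 and 8.57 CPM in HFD+RE, 14.4, 9.09 and 12.2 CPM in HFD, and 5.11, 4.13 and 3.02 CPM in NC. Each HFD library exceeded each NC library (means of 11.9 ± 2.67 CPM in HFD and 4.09 ± 1.05 CPM in NC, SD, n = 3 each), with a log2 change of 1.54 (SE 0.28, adjusted p = 0.0076). Rsad2 encodes viperin, which makes a nucleotide that stops viral RNA synthesis. Rsad2 had 12.3, 8.08 and 10.3 CPM in HFD+AE, 9.02, 10.9 and 8.19 CPM in HFD+RE, 16.9, 15.5 and 19.9 CPM in HFD, and 11.2, 8.11 and 7.20 CPM in NC. Both exercise groups lay in or near the NC range, and HFD over NC was 0.98 (SE 0.22, adjusted p = 0.016). Isg20 encodes an exonuclease that degrades viral RNA. Isg20 had 1.51, 1.67 and 1.83 CPM in HFD+AE, 2.21, 2.52 and 2.28 CPM in HFD+RE, 3.39, 3.02 and 4.03 CPM in HFD, and 1.67, 1.57 and 2.12 CPM in NC. The HFD libraries stood above all 9 others, at 0.96 (SE 0.23, adjusted p = 0.022) over NC.

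The other 5 effectors did not pass. Mx1 encodes a GTPase that blocks influenza-like viruses, and in many inbred mouse strains the gene is defective. Mx1 had 1.64, 0.886 and 1.01 CPM in HFD+AE, 2.02, 1.45 and 1.25 CPM in HFD+RE, 2.59, 2.42 and 1.96 CPM in HFD, and 1.67, 1.501 and 1.01 CPM in NC. Its change of 0.74 (SE 0.32, adjusted p = 0.12) came without overlap of HFD and NC. Bst2, the gene with the highest level per length, was spread widely within both exercise groups. Bst2 had 63.5, 65.8 and 124 CPM in HFD+AE, 69.7, 166 and 180.5 CPM in HFD+RE, 167, 133 and 184 CPM in HFD, and 109.5, 107 and 134 CPM in NC. The lowest HFD library lay just below the highest NC library, at 0.46 (SE 0.33, adjusted p = 0.33). Eif2ak2 encodes PKR, a kinase that halts translation when it meets double-stranded RNA. Eif2ak2 had 24.0, 25.8 and 18.9 CPM in HFD+AE, 28.3, 18.7 and 21.1 CPM in HFD+RE, 22.7, 25.0 and 24.9 CPM in HFD, and 26.2, 22.4 and 23.4 CPM in NC. All 4 groups overlapped, at 0.01 (SE 0.18, adjusted p = 0.97). Cmpk2 and Mx2 had log2 changes of 0.24 and -0.13 and did not pass.

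Of 8 further interferon-induced genes, 3 rose, and 1 of them, Xaf1, was among the 4 that passed in every alternative tried. Xaf1 encodes a protein that opposes the inhibitor of cell death XIAP. Xaf1 had 4.003, 5.62 and 5.73 CPM in HFD+AE, 6.83, 6.09 and 6.69 CPM in HFD+RE, 9.23, 7.49 and 11.5 CPM in HFD, and 4.48, 2.31 and 3.27 CPM in NC. HFD over NC was 1.49 (SE 0.26, adjusted p = 0.0064), a 2.80-fold higher level. Ifi44 had 4.38, 5.08 and 2.43 CPM in HFD+AE, 4.61, 2.72 and 2.496 CPM in HFD+RE, 6.01, 4.96 and 4.02 CPM in HFD, and 2.71, 1.57 and 2.44 CPM in NC. Here HFD was above NC without overlap, and the change was 1.15 (SE 0.34, adjusted p = 0.039). Ifi35 had 11.5, 11.4 and 17.2 CPM in HFD+AE, 11.8, 20.7 and 21.1 CPM in HFD+RE, 23.4, 17.5 and 25.6 CPM in HFD, and 11.9, 9.35 and 13.2 CPM in NC. For Ifi35 it was 0.95 (SE 0.26, adjusted p = 0.030), and 16.8% of its length overlaps a gene on the other strand, Gm11626, so its value is uncertain. Rtp4, Ifi27, Trim30a, Parp9 and Parp14 did not pass, with log2 changes from -0.16 (Parp14) to 0.50 (Rtp4). Parp9 overlaps Dtx3l on the other strand over 9.40% of its length.

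Of 5 regulators 1 rose and none fell. Usp18 encodes the protease that removes Isg15 from proteins and damps the type I receptor, and it was the regulator that rose. Usp18 had 8.54, 8.22 and 10.9 CPM in HFD+AE, 8.51, 9.41 and 7.94 CPM in HFD+RE, 12.7, 9.98 and 11.1 CPM in HFD, and 6.64, 5.31 and 7.72 CPM in NC. HFD and NC did not overlap, and the change was 0.78 (SE 0.20, adjusted p = 0.024). Irf7, the factor that amplifies type I interferon production, missed the threshold. Irf7 had 32.4, 29.8 and 51.6 CPM in HFD+AE, 25.1, 39.2 and 38.6 CPM in HFD+RE, 41.3, 43.3 and 49.2 CPM in HFD, and 33.6, 24.1 and 25.1 CPM in NC. Its change was 0.69 (SE 0.24, adjusted p = 0.065), with all 3 HFD libraries above all 3 of NC. Stat2 and Irf9 encode parts of the ISRE-binding complex. Stat2 had 60.9, 62.0 and 47.8 CPM in HFD+AE, 64.1, 63.5 and 77.7 CPM in HFD+RE, 71.0, 81.0 and 79.0 CPM in HFD, and 66.3, 72.8 and 75.2 CPM in NC. Irf9 had 35.5, 39.8 and 43.4 CPM in HFD+AE, 45.1, 37.0 and 30.8 CPM in HFD+RE, 38.7, 43.7 and 39.3 CPM in HFD, and 41.7, 35.5 and 36.4 CPM in NC. Neither separated the diets, with log2 changes of 0.11 (SE 0.16, adjusted p = 0.66) for Stat2 and 0.10 (SE 0.17, adjusted p = 0.70) for Irf9.

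The 4 sensors recognise foreign nucleic acid. Zbp1, a sensor of Z-form nucleic acid that can trigger cell death, rose. Zbp1 had 5.81, 5.30 and 7.81 CPM in HFD+AE, 6.37, 9.12 and 5.06 CPM in HFD+RE, 8.12, 10.9 and 8.71 CPM in HFD, and 5.47, 3.20 and 5.49 CPM in NC. HFD lay above NC in every library, at 0.97 (SE 0.28, adjusted p = 0.035). Ifih1 encodes MDA5, a sensor of long double-stranded RNA. Ifih1 had 38.7, 42.4 and 18.6 CPM in HFD+AE, 48.5, 17.0 and 21.2 CPM in HFD+RE, 19.9, 30.8 and 17.1 CPM in HFD, and 35.5, 29.4 and 23.1 CPM in NC. The ranges of all 4 groups overlapped, with -0.38 (SE 0.39, adjusted p = 0.51) for HFD over NC. Ddx58 (RIG-I) and Dhx58 (LGP2) did not pass, with log2 changes of 0.18 and 0.39.

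None of the 6 OAS genes, whose products make the second messenger that activates RNase L or are related to it, passed the test. Their log2 changes ran from -0.27 (Oas3) to 0.83 (Oasl1, adjusted p = 0.051), with a median of 0.45. Oas2 had 5.17, 3.54 and 1.52 CPM in HFD+AE, 4.63, 1.47 and 2.15 CPM in HFD+RE, 2.997, 4.38 and 2.66 CPM in HFD, and 3.87, 3.52 and 4.09 CPM in NC. HFD and NC overlapped for Oas2, at -0.20 (SE 0.44, adjusted p = 0.77). Oas1a and Oas1g share 57.6% of the 50-base stretches of Oas1a, and their separate values are uncertain.

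The gamma-like genes rose in 1 of 8 cases (12.5%) and the type I-like genes in 11 of 34 (32.4%), where 8.38% of all tested genes rose. By called genes, the gamma-like count was thus near the background. Every HFD library was above every NC library in 4 of 8 gamma-like and 19 of 34 type I-like genes. This held for 23.9% of all tested genes, so by this measure both classes were above the background. Median log2 changes were 0.34 for gamma-like and 0.48 for type I-like genes. These counts and medians are given as a description without a test of the classes. Gbp7, of the guanylate-binding proteins that attack the membranes around intracellular microbes, was the gamma-like gene that rose. Gbp7 had 22.5, 20.3 and 11.2 CPM in HFD+AE, 24.3, 12.4 and 20.9 CPM in HFD+RE, 28.6, 24.9 and 32.0 CPM in HFD, and 12.3, 10.5 and 17.9 CPM in NC. HFD was above NC without overlap, at 1.07 (SE 0.30, adjusted p = 0.033). Over 11.3% of its length Gbp7 overlaps Gm43802 on the same strand, so its value is uncertain. Gbp2 had 5.79, 5.39 and 5.60 CPM in HFD+AE, 7.66, 2.96 and 1.83 CPM in HFD+RE, 5.64, 3.96 and 3.60 CPM in HFD, and 2.77, 7.07 and 5.98 CPM in NC. Gbp2, a close relative on the same stretch of chromosome 3, did not separate the groups, at -0.26 (SE 0.45, adjusted p = 0.70). Gbp3 had a log2 change of 0.74 (SE 0.26, adjusted p = 0.068). The immunity-related GTPases Iigp1, Igtp and Irgm1 act on vacuoles that hold parasites or bacteria. Iigp1 had 389.7, 349.5 and 154 CPM in HFD+AE, 351, 185 and 275 CPM in HFD+RE, 299, 384 and 268 CPM in HFD, and 387, 312 and 371 CPM in NC. Igtp had 26.1, 29.7 and 32.4 CPM in HFD+AE, 25.9, 38.7 and 24.9 CPM in HFD+RE, 41.6, 30.5 and 47.4 CPM in HFD, and 13.4, 22.8 and 53.1 CPM in NC. Irgm1 had 48.5, 52.7 and 40.8 CPM in HFD+AE, 54.6, 47.7 and 37.5 CPM in HFD+RE, 51.6, 55.1 and 52.2 CPM in HFD, and 44.3, 48.5 and 50.6 CPM in NC. Igtp spread from 13.4 to 53.1 CPM within NC alone, and all 3 genes missed the threshold, with log2 changes of -0.17 for Iigp1, 0.42 for Igtp and 0.15 for Irgm1. Irf1, an early transcription factor of the gamma response, was higher in HFD without overlap but did not pass. Irf1 had 15.4, 19.5 and 27.8 CPM in HFD+AE, 21.9, 29.1 and 27.9 CPM in HFD+RE, 32.6, 29.9 and 30.8 CPM in HFD, and 19.8, 26.6 and 22.4 CPM in NC. Its change was 0.44 (SE 0.21, adjusted p = 0.16), and 20% of its length overlaps Gm17334 on the other strand.

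**Figure D4:**
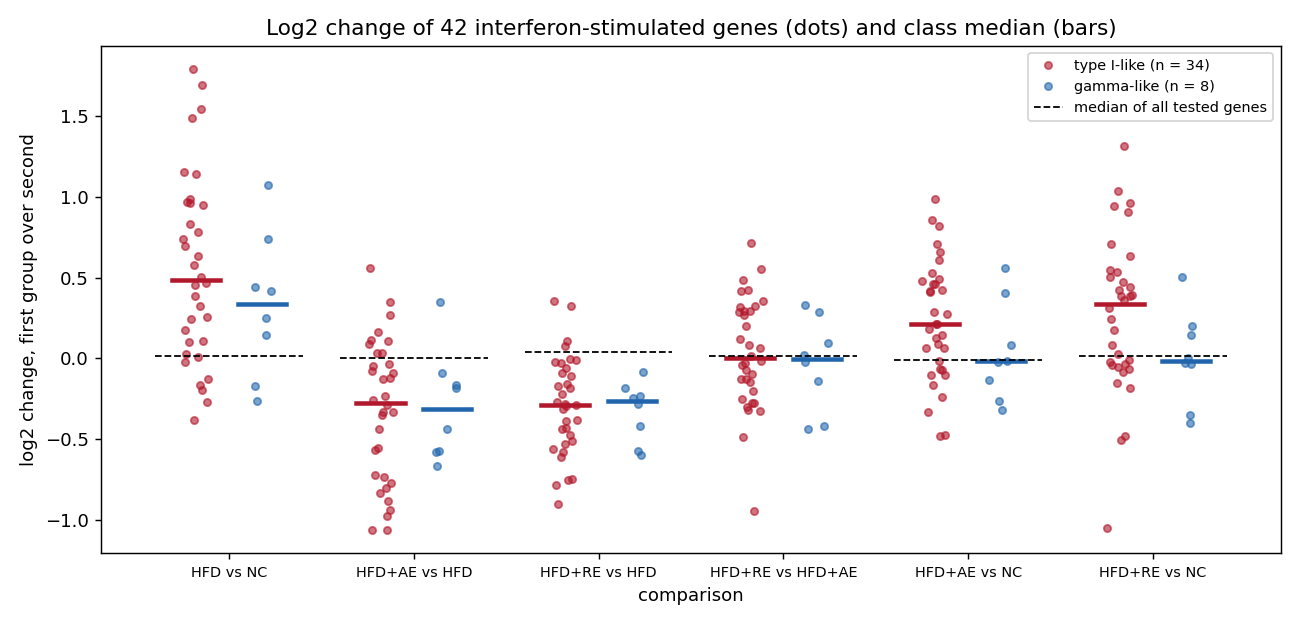
Log2 change of each gene (dots, first group over second) in 6 comparisons, split into type I-like (n = 34) and gamma-like (n = 8), with class medians as bars and the median of all tested genes as a dashed line. In HFD vs NC the medians are 0.48 and 0.34, and in both comparisons of an exercise group with HFD both medians are below 0.

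In each library, the mean log2 CPM of the type I-like genes minus that of the gamma-like genes gives the balance of the classes. It ran from -1.42 to -1.11 in HFD+AE, from -1.35 to -1.16 in HFD+RE, from -1.35 to -1.20 in HFD and from -1.80 to -1.04 in NC. The NC range enclosed the ranges of the other groups.

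Within the list, the number of calls changed when single libraries were left out. Ifit3, Ifit1, Isg15 and Xaf1 passed in all 18 alternatives. The number of the 42 called was 5 without HFD 1, 4 without HFD 3, 6 without NC 2 and 4 without NC 4. The share of all tested genes called was 2.60%, 2.21%, 4.96% and 3.06% in the same fits, against 15.6% with all libraries. The median log2 change of the 42 was 0.45, 0.40, 0.44 and 0.36 in these fits, against 0.45 with all libraries. Each of these fits had fewer libraries in a compared group. So did the fits without HFD 2 and without NC 5, where 10 and 12 of the 42 were called. In those fits 18.8% and 11% of all tested genes were called. The count thus depended on which library was left out, and the cause of the lower counts was not tested.

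Gene length moved with the change. Across the 42 genes the rank correlation between log2 change and exon length was -0.51, and across all tested genes it was -0.25. The 7 genes under 2000 bases had a median log2 change of 0.95 with 4 called, the 23 genes from 2000 to under 5000 bases 0.50 with 6 called, and the 12 longer genes 0.10 with 2 called. With the length trend of all genes removed from the fit, 11 of the 12 genes still passed, the exception being Isg20 (adjusted p = 0.053), and the median over the list was 0.31. Its type I-like and gamma-like medians were then 0.34 and 0.22.

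**Figure D5:**
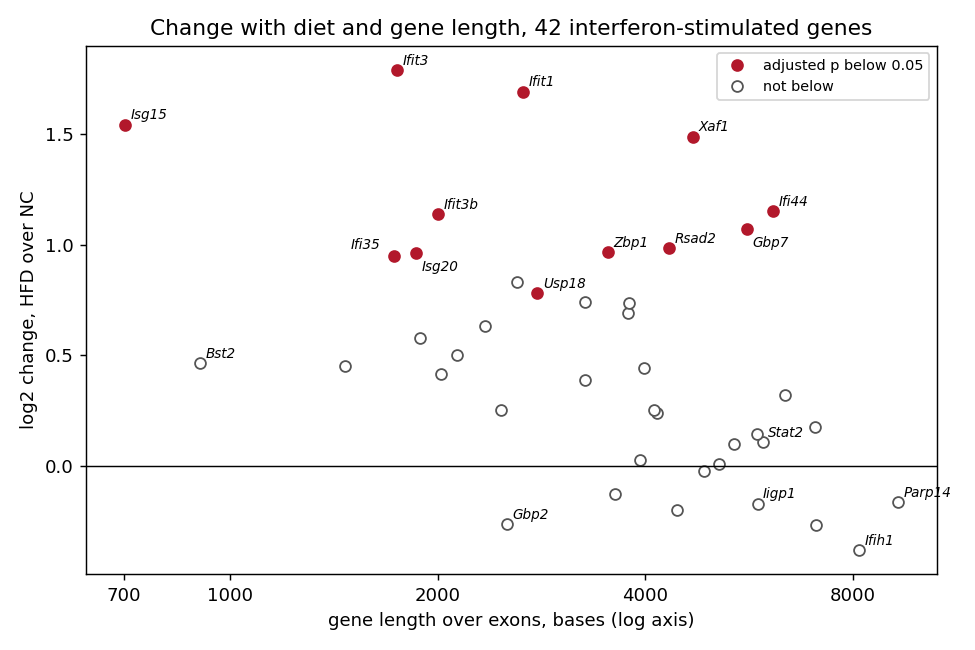
Log2 change, HFD over NC, against gene length over exons (log axis) for the 42 genes, with filled points for an adjusted p below 0.05. The called genes span lengths from 703 bases (Isg15) to 6129 bases (Ifi44), and the 2 lowest changes, -0.38 (Ifih1) and -0.27 (Oas3), belong to genes of 8165 and 7069 bases.

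Markers of immune cells moved with the same comparison. Of 14 T and NK cell markers 5 rose, with a summed level of 31.0, 6.89 and 57.0 CPM in HFD 1, 2 and 3, against 5.91 to 14.5 CPM in NC, where Ncr1 was at 0 in 1 library. Of 10 B and plasma cell markers 6 rose, with sums of 28.5 to 55.7 CPM in HFD and 15.7 to 31.6 CPM in NC, and none was at 0. Of 8 Kupffer cell markers 2 fell (Cd163 and Folr2), with sums of 72.4 to 194 CPM in HFD and 199 to 325 CPM in NC. Of the 4 plasmacytoid dendritic cell markers tested, out of 7 listed, 1 rose (Tcf4), with sums of 38.4 to 54.0 CPM in HFD and 28.5 to 32.4 CPM in NC, and Klk1 was at 0 in HFD 2, Cox6a2 in NC 2 and NC 4, and Cd209d in HFD 1, HFD 2 and NC 4. Of 7 markers of recruited macrophages 2 rose (Ccr2 and Ly6c2) and 1 fell (Cd9), with sums of 37.6 to 67.7 CPM in HFD and 35.1 to 47.9 CPM in NC. None of 8 antigen-presenting cell markers and none of 5 tested neutrophil markers passed, while 1 of 6 endothelial markers (Kdr) and 1 of 5 erythroid markers (Alas2) fell. In HFD 2 the T and NK cell sum lay within the NC range. So did its B and plasma cell (28.5 CPM), recruited macrophage (37.6 CPM) and erythroid sums (273 CPM, 159 to 301 CPM in NC). Its plasmacytoid dendritic cell sum of 38.4 CPM and its neutrophil sum of 7.89 CPM (4.87 to 6.17 CPM in NC) lay above the NC range. Its mitochondrial ribosomal RNA, at 1.76% of counts, also lay above it. Below the NC range was its antigen-presenting cell sum (75.2 CPM, 105 to 159 CPM in NC). Its endothelial sum (118 CPM, 166 to 202 CPM in NC) and its Kupffer cell and hepatocyte sums were below it too. Hepatocyte markers were abundant in every library, with sums of 58129 to 76470 CPM in HFD and 95736 to 116457 CPM in NC, and 2 of 6 fell (Alb and Tat). Mitochondrial ribosomal RNA made up 1.76% to 3.26% of counts in HFD and 0.708% to 0.924% in NC. The part of cell makeup and RNA quality in the changes was not tested.

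Outside the 42 genes, none of the pathway's tested receptors and inhibitors passed, and no ligand had enough reads to be tested. Of 10 interferon ligand genes, 8 had no count in any of the 12 libraries (Ifna1, Ifna2, Ifna4, Ifna5, Ifnb1, Ifne, Ifnl2 and Ifnl3), which allows up to 0.0394 to 0.0667 CPM per library (3 counts). That limit covers only reads that were assigned to a gene, because the treatment of reads with several matches is not given. Ifnk and Ifng had 48 and 66 counts over the 12 libraries and were not tested. Ifng had 11, 6 and 24 counts in HFD, against 0, 8 and 5 in NC. The receptor list held 6 genes. Ifnar2 had 17.4, 25.7 and 12.2 CPM in HFD, against 37.3, 35.7 and 25.9 CPM in NC. Ifnar2, a chain of the type I receptor, was at -0.84 (SE 0.27, adjusted p = 0.054). Ifngr2 had 25.2, 28.8 and 24.7 CPM in HFD, against 19.8, 14.4 and 18.4 CPM in NC. Ifngr2, a chain of the gamma receptor, was at 0.58 (SE 0.19, adjusted p = 0.051). Ifnar1 and Ifngr1 had log2 changes of -0.42 and -0.24. Of the 7 tested inhibitors, Socs1, which blocks JAK kinases, was at -0.11 (SE 0.66, adjusted p = 0.92).

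In the signalling list 1 of 20 tested genes rose and 3 fell, where 8.38% of all tested genes rose and 7.19% fell. With so few genes, no departure from that background is read from these counts. Those that fell were Irf5, Mavs and Tbk1. Irf5 had 4.24, 5.73 and 3.10 CPM in HFD, against 15.5, 13.6 and 8.87 CPM in NC. Irf5, a factor downstream of Toll-like receptors, was at -1.54 (SE 0.34, adjusted p = 0.015). Mavs had 60.7, 84.2 and 45.8 CPM in HFD, against 98.8, 102 and 117 CPM in NC. Mavs, the adaptor of RIG-I and MDA5, was at -0.74 (SE 0.21, adjusted p = 0.035). Tbk1 had 23.2, 23.6 and 21.1 CPM in HFD, against 36.2, 33.3 and 36.3 CPM in NC. Tbk1, the kinase that activates Irf3, was at -0.64 (SE 0.20, adjusted p = 0.048).

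A second list of 53 interferon-stimulated genes outside the 42 had 52 tested, of which 13 rose, 2 fell (Helz2 and Lgals9) and 37 did not pass, with a median log2 change of 0.13. Among all tested genes 8.38% rose and 7.19% fell, with a median of 0.01. The 4 with the smallest p were Ifi27l2b, Apol9a, Psmb9 and Apol9b. Ifi27l2b had 3.30, 5.46 and 9.25 CPM in HFD+AE, 6.16, 6.61 and 6.31 CPM in HFD+RE, 22.1, 15.1 and 14.9 CPM in HFD, and 3.83, 1.89 and 2.01 CPM in NC. The HFD level was above all other libraries, and HFD over NC was 2.75 (SE 0.37, adjusted p = 0.0018). Psmb9 had 12.7, 15.1 and 19.6 CPM in HFD+AE, 15.7, 23.8 and 26.9 CPM in HFD+RE, 31.5, 20.2 and 33.3 CPM in HFD, and 9.94, 7.05 and 9.32 CPM in NC. Psmb9 encodes a subunit of the immunoproteasome, which cuts proteins for display to T cells, and had a log2 change of 1.69 (SE 0.26, adjusted p = 0.0038). Apol9a had 100, 105 and 160.3 CPM in HFD, against 35.0, 34.6 and 34.8 CPM in NC. Apol9b had 174, 184 and 264 CPM in HFD, against 64.9, 60.8 and 56.4 CPM in NC. Apol9a and Apol9b had log2 changes of 1.81 (SE 0.26, adjusted p = 0.0027) and 1.77 (SE 0.31, adjusted p = 0.0063). They belong to 1 gene family, and reads may be split between them.

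AE training on the high-fat diet was compared with the diet alone, using the same 3 HFD libraries that entered HFD vs NC. None of the 42 genes passed in HFD+AE vs HFD, where 0.0492% of all tested genes did. At an unadjusted p below 0.05, 14 of 42 (33.3%) were lower and 0 higher, against 13.1% of all tested genes lower. In 16 of 42 (38.1%) every HFD+AE library was below every HFD library, against 16.3% of all tested genes. The median log2 change was -0.27 over the list and 0.00 over all genes, with 32 of 42 negative, and it was -0.27 for type I-like and -0.31 for gamma-like genes. DESeq2 called 8 of the 42 where it called 12.1% of all tested genes. The smallest adjusted p values were those of Isg20, at -1.06 (SE 0.24, adjusted p = 0.060), and Isg15, at -1.06 (SE 0.28, adjusted p = 0.063). Rsad2 was at -0.77 (SE 0.22, adjusted p = 0.072), Xaf1 at -0.88 (SE 0.26, adjusted p = 0.076) and Ifit3 at -0.80 (SE 0.25, adjusted p = 0.083). Cell markers differed between these groups too, although none passed at an adjusted p below 0.05. Of 14 T and NK cell markers 11 were lower at an unadjusted p below 0.05, with sums of 4.27 to 9.37 CPM in HFD+AE and 6.89 to 57.0 CPM in HFD. So were 7 of 10 B and plasma cell markers (23.2 to 30.6 CPM in HFD+AE, 28.5 to 55.7 CPM in HFD), 3 of 4 tested plasmacytoid dendritic cell markers (28.2 to 32.2 CPM in HFD+AE, 38.4 to 54.0 CPM in HFD) and 4 of 5 tested neutrophil markers (2.52 to 3.68 CPM in HFD+AE, 7.55 to 14.0 CPM in HFD). Lower by that measure were also 3 of 7 recruited macrophage markers (24.6 to 38.5 CPM in HFD+AE, 37.6 to 67.7 CPM in HFD) and 3 of 8 antigen-presenting cell markers (89.9 to 139 CPM in HFD+AE, 75.2 to 247 CPM in HFD). Higher were 4 of 6 endothelial markers (139 to 244 CPM in HFD+AE, 70.8 to 118 CPM in HFD) and 2 of 8 Kupffer cell markers (170 to 293 CPM in HFD+AE, 72.4 to 194 CPM in HFD). Higher too were 2 of 6 hepatocyte markers (93856 to 108022 CPM in HFD+AE, 58129 to 76470 CPM in HFD). Of 5 erythroid markers 2 were lower and 1 higher (125 to 328 CPM in HFD+AE, 273 to 493 CPM in HFD). Of all tested genes 13.1% were lower and 13.3% higher by that measure. Ly6g of neutrophils was at 0 in HFD+AE 1 and 3 and in HFD 1 and 2, and no T, NK, B or plasma cell marker was at 0 in either group. Mitochondrial ribosomal RNA made up 0.771% to 0.867% of counts in HFD+AE and 1.76% to 3.26% in HFD. The part of cell makeup and RNA quality in these differences was not tested.

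Library HFD+AE 3 stood apart from HFD+AE 1 and 2, as HFD+RE 3 did from HFD+RE 4 and 5. The rank correlation between level and gene length over all genes was 0.29 in both HFD+AE 1 and HFD+AE 2 but -0.03 in HFD+AE 3. Likewise it was 0.22 in HFD+RE 3 but -0.29 in HFD+RE 4 and -0.31 in HFD+RE 5. Its range was -0.29 to -0.15 over the HFD libraries and 0.08 to 0.21 over the NC libraries. Short Bst2 and long Ifih1 followed it: Bst2 was at 63.5 and 65.8 CPM in HFD+AE 1 and 2 and at 69.7 CPM in HFD+RE 3, against 124 to 180 CPM in the other 3 exercise libraries, and Ifih1 was at 38.7, 42.4 and 48.5 CPM in the first 3 and at 17.0 to 21.2 CPM in the others. With HFD+AE 3 and HFD+RE 3 both left out, 11 of 42 genes passed in HFD+AE vs HFD (26.2%), where 22.5% of all tested genes passed. Leaving out HFD+RE 3 alone gave 8 of 42, with 10.2% of all tested genes called, and leaving out HFD 2 gave 4, with 8.93%. Across the 42 genes the rank correlation between length and log2 change in HFD+AE vs HFD was 0.52, against 0.30 over all genes. With the length trend of all genes removed, 0 of 42 passed and the median over the list was -0.24.

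RE training was set against the diet alone in the same way. In HFD+RE vs HFD, which again shares the HFD libraries, 0 of 42 passed, where 0.0109% of all tested genes did. At an unadjusted p below 0.05, 5 of 42 (11.9%) were lower and 0 higher, against 4.78% of all tested genes lower, and 10 of 42 (23.8%) lay below HFD without overlap, against 6.99% of all tested genes. The median was -0.28 for the list and 0.04 for all genes, and 38 of 42 were negative. Type I-like and gamma-like medians were -0.28 and -0.26. DESeq2 called 1 of the 42 and 1.13% of all tested genes. Rsad2 had the smallest adjusted p, at -0.90 (SE 0.22, adjusted p = 0.28). Again no cell marker passed at an adjusted p below 0.05. At an unadjusted p below 0.05, 12 of 14 T and NK cell markers were lower, with sums of 7.73 to 11.1 CPM in HFD+RE and 6.89 to 57.0 CPM in HFD. The same held for 5 of 10 B and plasma cell markers (24.5 to 49.0 CPM in HFD+RE, 28.5 to 55.7 CPM in HFD), 2 of 4 tested plasmacytoid dendritic cell markers (31.4 to 43.9 CPM in HFD+RE, 38.4 to 54.0 CPM in HFD), 3 of 5 tested neutrophil markers (2.96 to 7.39 CPM in HFD+RE, 7.55 to 14.0 CPM in HFD), 2 of 7 recruited macrophage markers (26.3 to 34.4 CPM in HFD+RE, 37.6 to 67.7 CPM in HFD) and 2 of 8 antigen-presenting cell markers (64.4 to 136 CPM in HFD+RE, 75.2 to 247 CPM in HFD). Higher by that measure were 1 of 6 hepatocyte markers (85389 to 101732 CPM in HFD+RE, 58129 to 76470 CPM in HFD) and 1 of 8 Kupffer cell markers (42.7 to 278 CPM in HFD+RE, 72.4 to 194 CPM in HFD). So was 1 of 5 erythroid markers (148 to 384 CPM in HFD+RE, 273 to 493 CPM in HFD). Of all tested genes 4.78% were lower and 3.99% higher. Ly6g was at 0 in HFD+RE 3 and 4, and no T, NK, B or plasma cell marker was at 0 in HFD+RE. Mitochondrial ribosomal RNA made up 0.685% to 1.71% of counts in HFD+RE, below the HFD range. Their part in the differences was not tested.

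Side by side, the 12 genes that rose on the diet had log2 changes of -1.06 (Isg20) to -0.29 (Usp18) in HFD+AE vs HFD, with a median of -0.75, and of -0.90 (Rsad2) to -0.31 (Ifi35) in HFD+RE vs HFD, with a median of -0.52. They were chosen for being high in the HFD libraries that both comparisons use, so these negative values are no independent evidence. Averaged over the 12 genes, log2 CPM was 2.68 to 2.73 in the HFD+AE libraries, 2.85 to 2.93 in HFD+RE, 3.27 to 3.58 in HFD and 1.91 to 2.45 in NC. That of the other 30 was 3.63 to 3.79 in HFD+AE, 3.46 to 3.96 in HFD+RE, 3.86 to 3.94 in HFD and 3.58 to 3.73 in NC. The choice of the 12 genes as high in HFD and low in NC bears on the place of all 4 groups on this measure, so nothing is read from their order.

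Between the exercise groups, none of the 42 genes passed in HFD+RE vs HFD+AE, and the share of all tested genes called was 0%, with 0 of 42 by DESeq2 against 0.148% of all tested genes. At an unadjusted p below 0.05, 1 of 42 genes (2.38%) passed, Oas3 with a log2 change of -0.94 (SE 0.40, adjusted p = 0.61), against 8.02% of all tested genes. The median was 0.00 in both classes. Isg20 was higher in HFD+RE without overlap, with 2.21, 2.52 and 2.28 CPM in HFD+RE, against 1.51, 1.67 and 1.83 CPM in HFD+AE, but missed the threshold at 0.49 (SE 0.24, adjusted p = 0.61). With HFD+AE 3 and HFD+RE 3 left out, 11 of 42 passed (26.2%), where 22.1% of all tested genes did. The libraries left in had level-length correlations of 0.29 and 0.29 (HFD+AE 1 and 2) and of -0.29 and -0.31 (HFD+RE 4 and 5). With all libraries, the rank correlation between length and log2 change was -0.52 across the 42 genes and -0.33 over all genes. The part of gene length in these 11 calls was not tested.

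Against the normal diet, which shares its NC libraries with HFD vs NC, HFD+AE had 0 of 42 genes called, where 1.38% of all tested genes were. At an unadjusted p below 0.05, 8 of 42 (19.0%) were higher and 0 lower, against 8.33% of all tested genes higher, and DESeq2 called 1 of 42 and 4.55% of all tested genes. The smallest adjusted p was that of Ifit3, at 0.99 (SE 0.25, adjusted p = 0.078). The median was 0.16, with 0.21 for type I-like and -0.02 for gamma-like genes.

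HFD+RE over NC had 1 gene that rose (2.38% of the list), Ifit3, where 2.67% of all tested genes did, so the share was near the background. Ifit3 had 12.0, 16.6 and 13.0 CPM in HFD+RE, against 7.32, 3.68 and 5.72 CPM in NC, and changed by 1.31 (SE 0.25, adjusted p = 0.016). At an unadjusted p below 0.05, 9 of 42 (21.4%) were higher, against 14.5% of all tested genes, and 1 (Oas3) was lower. DESeq2 called 6 of 42 and 11.3% of all tested genes. The median was 0.19, with 0.34 for type I-like and -0.01 for gamma-like genes. Without HFD+RE 3 the count was 7, with 21.0% of all tested genes called, and without HFD+AE 3 it was 4, with 7.24%. It was 0 without HFD+RE 4 or without NC 4, with 0.594% and 0.753% called. Of the second list of 52 tested interferon-stimulated genes, 6 rose (Ifitm1, Parp10, Psmb9, Nmi, Apol9a and Apol9b), where 2.67% of all tested genes did.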

How the data were processed

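Liver RNA was sequenced in 12 libraries. The authors deposited 1 table of raw read counts per gene, summed over exons and not normalized, with featureCounts 2.0.6 named in its header. Per the submitters' processing notes, fastp, HISAT2 2.2.1 and DESeq2 1.40.1 were also used, with build mm10. How strand and reads with several matches were treated, and which annotation was used, is not given in the sources used here.

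The test was run in edgeR 4.0.16 under R 4.3.3 (TMM scaling, default low-count filter, robust quasi-likelihood F-test), with all 12 libraries in 1 model with a mean per group and no covariate. The 6 comparisons were read from that fit. Alternatives were DESeq2 1.42.0, its size factors in edgeR, no filter, removal of the length trend (smoother span 0.3), only the 2 groups compared, a replicate block, and leaving out libraries. The script was checked on simulated counts. Over 12883 genes, no pair of libraries agreed within sampling noise (smallest chi-square per degree of freedom 82.7). All 12 were counted as separate samples, but this check cannot tell whether 2 libraries come from 1 mouse. Groups that share 2 or more replicate numbers (HFD+AE with HFD, HFD+RE with NC) were checked for pairing, and the numbers were not taken as pairs.

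The 42 genes, the further lists and the tests were chosen with earlier results of these data known, so their direction is not independent evidence. Per-library values are given for each gene called in any comparison and for Ifit1, Ifit3, Isg15, Irf7, Irf9, Stat2, Irf1, Usp18, Oas2, Rsad2, Mx1, Ifih1, Bst2, Eif2ak2, Gbp2, Gbp7, Iigp1, Igtp, Irgm1 and Zbp1 whether called or not. Outside the 42, the receptors, Socs1, Ifng and Ifnb1 are named, with up to 4 called genes of each list by smallest p in HFD vs NC. A gene of the signalling list is counted but not reported here. Helz2, Lgals9 and the genes named for HFD+RE over NC were added after their values were seen. Class medians are descriptions with no test. Sequence sharing was counted as 50-base stretches of GENCODE M21 transcripts.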

Additional observations from a re-analysis of the deposited data

How the results depend on the processing

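The count of the 42 genes called, and after it the count of the listed pathway genes called outside them, moved by more than 1.5 times as follows, and the cause was not tested. A percentage in brackets is the share of all tested genes called in the same fit, in either direction. HFD vs NC had 12 and 19 (15.6%). The second count was 30 with only the 2 groups compared (28.7%). With HFD+AE 3 and HFD+RE 3 both left out the counts were 19 and 32 (33.1%). HFD+AE vs HFD had 0 and 0 (0.0492%), against 8 and 12 by DESeq2 (12.1%) and 1 and 6 without a filter (3.04%). With only the 2 groups the counts were 1 and 4 (3.75%). They were 11 and 26 without both libraries (22.5%) and 8 and 14 with a replicate block (12.1%). HFD+RE vs HFD had 0 and 0 (0.0109%), against 1 and 5 by DESeq2 (1.13%), and the second was 2 without a filter (0.137%). HFD+RE vs HFD+AE had 0 and 0 (0%), against 11 and 33 without both libraries (22.1%). HFD+AE vs NC had 0 and 0 (1.38%), against 1 and 2 by DESeq2 (4.55%). The counts were 1 and 1 without a filter (1.3%) and 2 and 1 without both libraries (1.66%). HFD+RE vs NC had 1 and 6 (3.96%), against 6 and 13 by DESeq2 (11.3%) and 0 and 1 with only the 2 groups (0.646%). Its first count was 5 without a filter (3.42%) and 2 with the length trend removed (4.38%). Without both libraries the counts were 13 and 40 (31.7%), and with a replicate block 6 and 29 (15.8%). Those 13 and 6 genes made up 31.0% and 14.3% of the 42, so both shares were near the background. Same-numbered libraries of HFD+AE and HFD had correlations of -0.12, 0.11 and 0.09 between their deviations from the group means, and those of HFD+RE and NC had -0.089 and 0.16, so the numbers are not taken as pairs. No paired analysis was possible for the other comparisons because their groups share fewer than 2 numbers. Only HFD+AE 2 of the HFD+AE libraries correlated best with its own number.

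The difference between the class medians (type I-like minus gamma-like) was 0.15, 0.04, -0.02, 0.00, 0.23 and 0.35 in the 6 comparisons. Without both libraries it was -0.088 in HFD+AE vs HFD and 0.24 in HFD+RE vs HFD+AE. Leaving out 1 library at a time gave the following ranges. HFD vs NC had 4 to 15 and 4 to 27 genes and a class difference of 0.14 to 0.39. HFD+AE vs HFD had 0 to 8, 0 to 11 and -0.087 to 0.20. HFD+RE vs HFD had 0 to 0, 0 to 1 and -0.03 to 0.10. HFD+RE vs HFD+AE had 0 to 0, 0 to 0 and -0.01 to 0.17. HFD+AE vs NC had 0 to 0, 0 to 0 and 0.10 to 0.55. HFD+RE vs NC had 0 to 7, 0 to 29 and 0.14 to 0.38. The share of all tested genes called ran from 2.21% to 23.5% in HFD vs NC and from 0% to 10.2% in HFD+AE vs HFD. It ran from 0.0105% to 0.28% in HFD+RE vs HFD and from 0% to 0.0106% in HFD+RE vs HFD+AE. Against NC it ran from 0.232% to 1.97% for HFD+AE and from 0.594% to 21.0% for HFD+RE. For the 12 genes called in HFD vs NC and Ifit3 in HFD+RE vs NC, no direction turned in any alternative.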
